A study of Mus musculus with 30 samples.

Results

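The VEGF family described here comprises the ligands Vegfa, Vegfb, Vegfc, Vegfd and Pgf, the receptor tyrosine kinases Flt1, Kdr and Flt4, and the co-receptors Nrp1 and Nrp2. These 10 genes were chosen by family membership, with earlier results of these data known. All 10 were found among the 14118 genes of the deposited count matrix. The study measured RNA in bulk in 30 libraries, from 6 stromal cell populations sorted out of each of 5 mammary adenocarcinomas, which grew in 5 mice of strain FVB/N-Tg(MMTVPyVT)634Mul/J. In these mice the mouse mammary tumour virus promoter drives the polyoma middle T oncogene in the mammary epithelium, so all groups carry the transgene and no library comes from healthy tissue. Each tumour had a volume of 750 mm3, and the tumours are numbered 5, 6, 8, 10 and 11. Neither the age of the mice nor any treatment is given in the sources used here.

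Endothelial cells were sorted as CD45- and CD31+. Cancer-associated fibroblasts (CAFs) were CD45-, CD31- and CD90+, and were split into CAF1 (CD34-) and CAF2 (CD34+). Tumour-associated macrophages (TAMs) were CD45+ and F4/80+, and were split into CD206hi (CD206+ with low MHC class II), CD206pos (CD206+ with high MHC class II) and CD206neg (CD206- with low MHC class II). Each group has 5 libraries, 1 from each tumour. Levels are counts scaled to library size with factors from the trimmed mean of M values (TMM-scaled CPM), as mean ± SD with n = 5 unless stated. The labels give each library its own sorted sample. The main fits of the populations did not pair libraries of 1 tumour. Their p-values therefore measure the spread between tumours within each population, not the spread of differences within tumours. Values listed singly follow the order of tumours 5, 6, 8, 10 and 11.

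VEGF-A is the main driver of blood vessel growth and acts through KDR (VEGFR2), while FLT1 (VEGFR1) binds VEGF-A, VEGF-B and placental growth factor and, with its soluble form, limits the VEGF-A that reaches KDR. VEGF-C and VEGF-D act through FLT4 (VEGFR3), best known from lymphatic vessels and from sprouting blood vessels, after proteases trim them to the active form. The neuropilins bind both VEGF ligands and class 3 semaphorins and present them to VEGF receptors or plexins.

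The promoter stretches of the 2 receptor genes that led the endothelial libraries and of Vegfa, whose product is the main ligand of KDR, are shown here, with GGAA, the core of sites for ETS transcription factors, and its complement TTCC in capitals. The sequences come from RefSeq on GRCm38.p6, run 5′ to 3′ on the minus strand, on which all 3 genes lie, and end before the first exon base annotated in GENCODE vM21.
Kdr chr5:75978459-75978705: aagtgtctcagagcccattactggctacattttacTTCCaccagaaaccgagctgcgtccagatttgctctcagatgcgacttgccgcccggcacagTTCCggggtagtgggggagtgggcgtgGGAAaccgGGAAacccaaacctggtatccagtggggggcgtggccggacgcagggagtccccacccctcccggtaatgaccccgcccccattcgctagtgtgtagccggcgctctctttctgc
Flt1 chr5:147726012-147726261: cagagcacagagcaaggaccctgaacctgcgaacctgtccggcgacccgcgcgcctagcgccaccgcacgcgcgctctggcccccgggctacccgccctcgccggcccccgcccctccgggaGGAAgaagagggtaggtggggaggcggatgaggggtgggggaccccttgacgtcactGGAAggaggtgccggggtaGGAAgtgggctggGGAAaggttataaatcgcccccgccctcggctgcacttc
Vegfa chr17:46032378-46032627: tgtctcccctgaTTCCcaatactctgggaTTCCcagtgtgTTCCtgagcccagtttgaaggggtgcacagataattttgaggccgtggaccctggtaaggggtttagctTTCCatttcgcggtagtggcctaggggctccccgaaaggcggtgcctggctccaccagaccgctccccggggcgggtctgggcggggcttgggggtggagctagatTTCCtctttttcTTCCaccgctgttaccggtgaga

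Searched on both strands, GGAA occurred 4 times in the Kdr stretch, 4 times in that of Flt1 and 6 times in that of Vegfa. Of 27025 mouse promoters of 250 bases in the same table, 93.4% held at least 1 such match, with a median of 3, so a match sets none of the members apart. The 250 bases before the start of Flt4 held 2 matches, Nrp1 4, Nrp2 1, Vegfb 1, Vegfc 1, Vegfd 3 and either start of Pgf 0. ACGTG, the core of sites for hypoxia-inducible factors, occurred in 16.6% of the promoters and, among the members, only once, before a second annotated Vegfa start at chr17:46025164-46025413. These matches describe letters in the windows and do not show binding.

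Library totals ran from 6292411 to 11957076 counts, so that 3 counts, the upper limit allowed by a count of 0, correspond to 0.251 to 0.477 CPM. This limit covers counting error only. The sort markers largely followed the labels. Pecam1 (CD31) stood at 657 ± 236 in endothelial libraries and 0.218 ± 0.213 in CAF1. Cd34 stood at 1460 ± 247 in CAF2 and 58.0 ± 41.4 in CAF1, and the CD206 gene Mrc1 at 1159 ± 497 in CD206hi and 84.2 ± 41.9 in CD206neg. The exceptions were the libraries labelled CD206neg of tumours 6 and 8, in which the MHC class II gene H2-Aa reached 14380 and 2897 against 17.8 to 551 in the other 3 of that group. Their data columns are named for high MHC class II, so the members' calls and the pathway counts against CD206neg are also given without them where they change.

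The endothelial library of tumour 8 stood apart. Its 9 endothelial markers summed to 1568 against 3867 to 4347 in the other 4, and its 8 pericyte markers to 1182 against 82.5 to 672. The members' receptor levels and some of the members' folds are therefore also given without it. Leaving it out changed the call of no member in any endothelial comparison. In bulk samples, fewer cells of a type and less RNA per cell cannot be told apart.

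**Figure D1:**
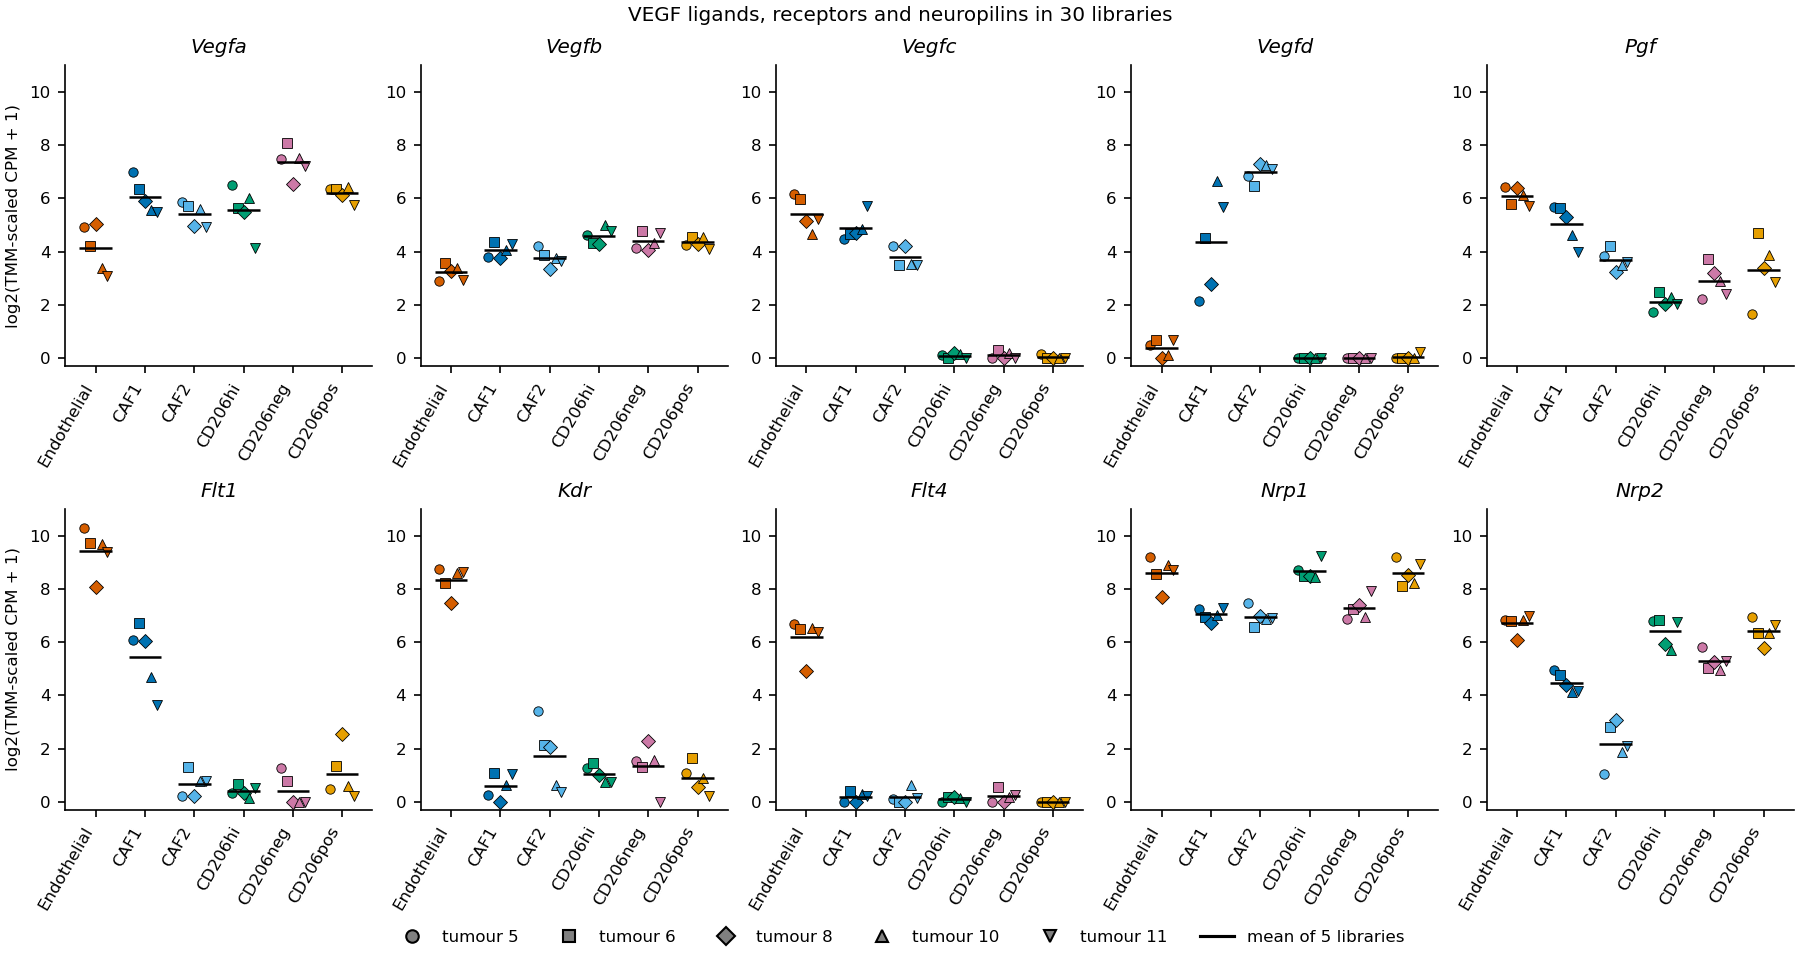
Levels of the 10 members in all 30 libraries, 1 panel per gene, on a log2 axis of TMM-scaled CPM + 1, with points for libraries, marker shapes for the tumour, colours for the population and bars for the mean of the 5 log2 values. Flt1, Kdr and Flt4 are highest in the endothelial libraries, Vegfd in CAF2 and Vegfa in CD206neg, and Vegfc and Vegfd lie at or near 0 in the TAMs.

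Vegfa was detected in every library and was highest in CD206neg in 5 of 5 tumours. Its levels in CD206neg were 177, 268, 92.3, 184 and 150, with a mean of 174 ± 63.8. The other populations averaged 73.3 ± 12.7 in CD206pos, 71.1 ± 33.9 in CAF1, 52.3 ± 26.4 in CD206hi, 43.0 ± 12.4 in CAF2 and 19.1 ± 11.03 in endothelial cells. The lowest CD206neg library lay above the highest CD206pos library (84.5), whereas each later pair of neighbours in this order overlapped. In CD206neg, the library with the most Vegfa (tumour 6) also had the highest summed epithelial markers (927) and that with the least (tumour 8) the lowest (29.1), and the part of epithelial RNA in these levels was not tested.

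Vegfb, a ligand of FLT1 that does not bind KDR, was the most evenly spread member, from 23.8 ± 5.26 in CD206hi to 8.44 ± 1.90 in endothelial cells. All neighbouring populations overlapped in their Vegfb levels. Pgf, which encodes placental growth factor, another ligand of FLT1, was highest in endothelial cells in 5 of 5 tumours, at 85.9, 54.0, 83.8, 68.8 and 51.2. Tumours 5 and 8, with the most endothelial Pgf, also had the highest sums of pericyte markers in endothelial libraries (672 and 1182), whose part was not tested. The endothelial range lay above that of CAF1 (14.9 to 49.5), and the TAM groups were low, at 3.38 ± 0.843 in CD206hi, 6.94 ± 3.40 in CD206neg and 11.3 ± 8.75 in CD206pos.

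Vegfc and Vegfd, the ligands of FLT4, were found in the stroma outside the macrophages. Vegfc measured 69.8, 62.3, 34.2, 24.2 and 36.2 in endothelial cells, 21.3, 24.5, 25.03, 27.7 and 51.7 in CAF1 and 13.2 ± 3.88 in CAF2. Endothelial cells and CAF1 overlapped, while CAF2 lay below both. The 15 TAM libraries held 6 Vegfc counts in all, with no library above 1, and the pooled ratio of endothelial cells to TAMs was 845 (95% interval 388 to 2310, exact, counting error only).

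Vegfd was highest in CAF2 in 5 of 5 tumours, at 113, 86.2, 154, 153 and 136. Its levels in CAF1 were 3.40, 21.5, 5.87, 101 and 49.6, a spread far wider than in CAF2, and only the library of tumour 10 reached the CAF2 range. Vegfd had no counts in the CD206hi and CD206neg libraries and 1 count in CD206pos. Pooled over libraries, with the floor of 3 counts taken over the group, Vegfd in CAF2 was at least 1730-fold higher than in CD206hi and at least 1610-fold higher than in CD206neg. Endothelial cells held 19 Vegfd counts over 5 libraries, and the pooled ratio of CAF2 to them was 454 (95% interval 290 to 754).

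Levels of different genes were compared per kilobase of exon, as shares of the summed level of the 5 ligands in a library. Vegfd made up 65.3% ± 9.23 of this sum in CAF2, Vegfa 71.7% ± 6.36 in CD206neg and Pgf 46.2% ± 8.84 in endothelial cells, where Vegfc followed at 34.9% ± 9.98. CD206hi was led by Vegfb, at 54.1% ± 13.8, and CD206pos by Vegfa, at 52.0% ± 5.66. In CAF1 the leading ligand differed between tumours. Vegfa held up to 45.5% and Vegfd between 2.19% and 51.0%, and the ratio of Vegfd to Vegfc per kilobase was above 1 in 1 of 5 CAF1 libraries but in 5 of 5 CAF2 libraries.

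**Figure D2:**
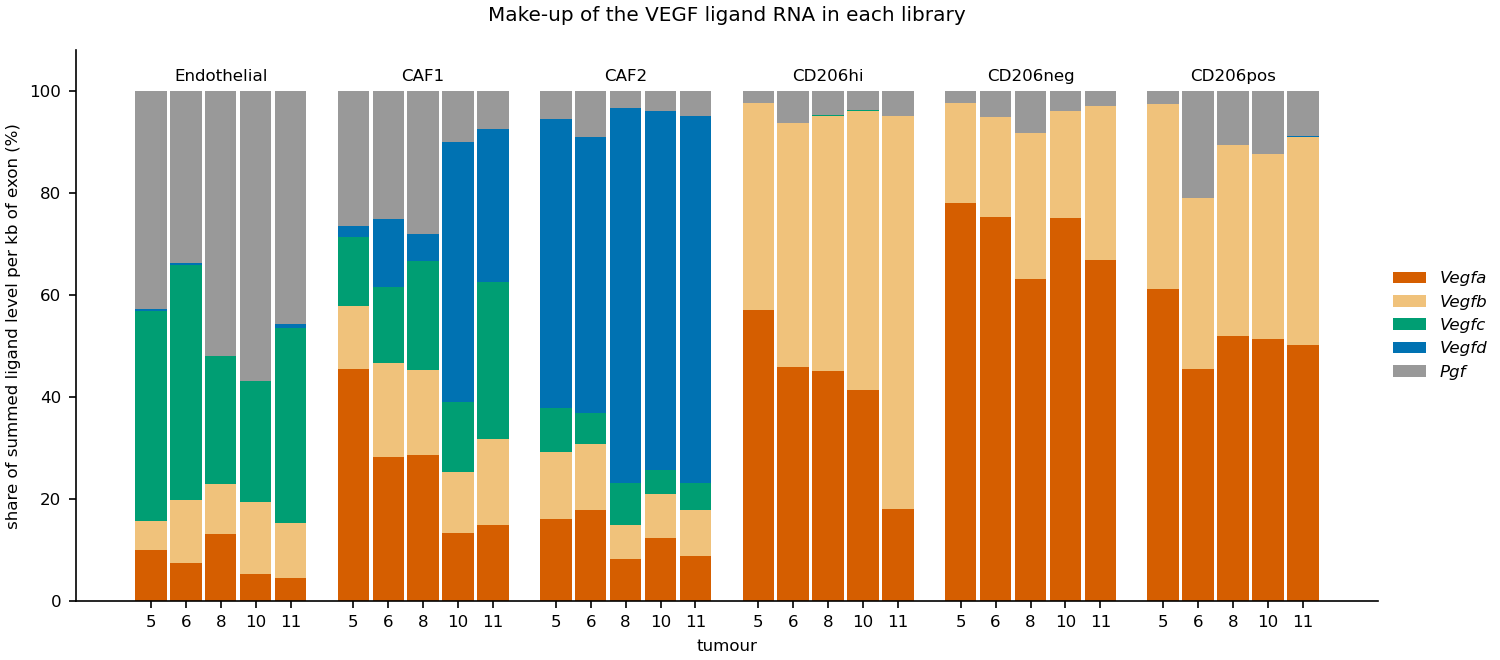
Share of each ligand in the summed ligand level per kilobase of exon (vertical axis, %), 1 bar per library, grouped by population and labelled by tumour below. Blue (Vegfd) fills between 54.0% and 73.6% of the CAF2 bars, dark orange (Vegfa) between 63.1% and 78.1% of the CD206neg bars, and the CAF1 bars differ between tumours.

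The 3 receptors were highest in endothelial cells in 5 of 5 tumours. Flt1 stood at 1259, 835, 269, 820 and 674, Kdr at 434, 302, 176, 385 and 393, and Flt4 at 101, 89.5, 28.9, 92.8 and 82.9. The library of tumour 8 was the lowest for each receptor, and without it the means were 897 ± 252 for Flt1, 378 ± 55.3 for Kdr and 91.5 ± 7.49 for Flt4 (n = 4). Per kilobase of exon, Flt1 made up 53.3% ± 6.18 of the summed receptor level in endothelial cells, Kdr 37.5% ± 6.28 and Flt4 9.19% ± 1.04. The ratio of Flt1 to Kdr per kilobase was 1.94, 1.85, 1.02, 1.43 and 1.15, above 1 in 5 of 5 libraries.

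Flt4 is known from lymphatic as well as tumour blood vessels. Markers of lymphatic endothelium were low in the endothelial libraries: Prox1, which specifies that lineage, averaged 2.84 ± 1.64, Lyve1 12.4 ± 8.07 and Mmrn1 5.91 ± 4.403, beside Flt4 at 79.0 ± 28.7. The library of tumour 6 had the lowest sum of 5 lymphatic markers, 2.26 against 20.6 to 39.9, and its Flt4 level of 89.5 lay within the range of the others. The library of tumour 8 had the highest sum and the lowest Flt4, and also the lowest sum of endothelial markers (1568 against 3867 to 4347). The part of lymphatic endothelium in these Flt4 levels was not tested.

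Outside the endothelium, the highest receptor levels were those of Flt1 in CAF1. They were 65.9, 103, 64.9, 24.6 and 11.5, against 0.647 ± 0.532 in CAF2. Kdr averaged 0.587 ± 0.501 in CAF1 and Flt4 0.147 ± 0.146, so that Flt1 made up 95.8% ± 5.76 of the receptor sum per kilobase there. Pooled counts gave a ratio of endothelial cells to CAF1 of 688 for Kdr (95% interval 462 to 1070) and 630 for Flt4 (289 to 1720).

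In CAF2 Kdr averaged 3.40 ± 3.74 and reached 9.58 in the library of tumour 5. The 9 endothelial markers summed to 3.30 in that library and to 1.48 to 3.27 in the other 4 CAF2 libraries. The TAM groups averaged at most 1.82 for Kdr, 1.496 for Flt1 and 0.166 for Flt4. Flt4 had no counts in CD206pos, and its pooled level in endothelial cells was at least 971-fold higher.

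Unlike the kinase receptors, Nrp1 was abundant in every population, and its lowest library stood at 93.8. It averaged 415 ± 107 in CD206hi, 413 ± 139 in endothelial cells, 402 ± 133 in CD206pos, 160 ± 49.97 in CD206neg, 132 ± 19.9 in CAF1 and 126 ± 29.8 in CAF2. The first 3 populations overlapped among themselves, as did the last 3, and the CD206pos libraries (275 to 588) lay above the CD206neg libraries (117 to 241). GENCODE places 80 exonic bases of the microRNA gene Mir1903 within Nrp1 on the same strand, and the matrix has no row for it.

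Nrp2, the partner of FLT4 in lymphatic endothelium, was highest in endothelial cells (106 ± 22.3) and lowest in fibroblasts. It averaged 88.5 ± 30.4 in CD206hi, 87.2 ± 25.1 in CD206pos, 38.6 ± 10.2 in CD206neg, 21.9 ± 5.85 in CAF1 and 4.08 ± 2.58 in CAF2. CD206neg lay above CAF1 and CAF1 above CAF2, with no overlap between these neighbours. Per kilobase, Nrp1 exceeded Nrp2 in all 30 libraries, by a median factor of 4.22 in endothelial cells and 44.7 in CAF2.

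Between the fibroblast subsets, Flt1, Nrp2, Pgf and Vegfc were higher in CAF1. Of the 8 members that passed the filter on low counts, 4 rose in CAF1 over CAF2 and 0 fell, while 19.5% of the 12149 genes tested were called, 10.9% higher in CAF1 and 8.59% lower. A call here and below means p under 0.05 in edgeR's quasi-likelihood test after Benjamini-Hochberg adjustment across the whole fit. The median log2 fold change was 0.97 over the members tested and 0.0080 over all genes.

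Flt1 was higher in CAF1 by a log2 fold change of 6.47 ± 0.68 (SE, edgeR adjusted p = 5.405e-05, higher in 5 of 5 tumours). Nrp2 was higher by 2.45 ± 0.42 (edgeR adjusted p = 0.001226), Pgf by 1.55 ± 0.32 (edgeR adjusted p = 0.003922) and Vegfc by 1.19 ± 0.27 (edgeR adjusted p = 0.00714), each in 5 of 5 tumours. These 4 calls held in every alternative run. Flt1 had 34 counts over the CAF2 libraries and passed the filter through CAF1, so its call follows in part from the filter. Nrp1 (0.08 ± 0.18, edgeR adjusted p = 0.8001) and Vegfb (0.32 ± 0.20, edgeR adjusted p = 0.3297) missed the threshold. Kdr and Flt4 did not pass the filter in this fit.

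Vegfd and Vegfa lay near the threshold. Vegfd was lower in CAF1 in 5 of 5 tumours, by a log2 fold change of -1.82 ± 0.69 (edgeR adjusted p = 0.08662), and was called with tumour as a block (-2.62, edgeR adjusted p = 0.03178), in the fit of all 30 libraries (edgeR adjusted p = 0.04207) and without the CAF1 library of tumour 10 (-2.71, edgeR adjusted p = 0.01064). Vegfa was higher in CAF1 in 4 of 5 tumours, by 0.74 ± 0.29 (edgeR adjusted p = 0.09996), and was called with the block (0.68, edgeR adjusted p = 0.02711). Over the libraries left out in turn, the adjusted p of Vegfd ranged from 0.01064 to 0.1813 and that of Vegfa from 0.05876 to 0.2715.

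Markers of other cells moved with these members inside CAF1. The 8 pericyte markers all had counts and summed to 1867, 2064, 2301, 799 and 1012 in CAF1, against 150 to 211 in CAF2, and Rgs5, a defining pericyte gene, to 695, 847, 893, 246 and 272. Tumours 10 and 11, with the lowest pericyte sums, also had the lowest CAF1 levels of Flt1, Pgf and Nrp2. The part of pericytes in these differences was not tested. The endothelial markers summed to 29.2 to 102.3 in CAF1, of which Esam and Emcn made up 83.0% to 96.9%, while Pecam1 (0.218), Cdh5 (0.212) and Cldn5 (0.0354) were near 0 and Sox17 was at 0.

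Cd34, the gene of the sort marker that parts CAF1 from CAF2, was 20.7, 66.8, 10.3, 86.2 and 106 in CAF1, and Vegfd was highest in the 2 CAF1 libraries with the most Cd34. Epithelial markers summed to 3212, 1938, 1062, 244 and 654 in CAF1, and Vegfa was likewise highest in tumours 5, 6 and 8 (126, 81.0 and 58.2, against 46.6 and 43.9). In CAF2 the epithelial sums were 1.85 to 429. The part of CD34+ fibroblasts or of epithelial RNA in these levels was not tested. The CAF1 library of tumour 11, with the most Vegfc, had the highest sum of dissociation response genes (44510 against 11640 to 25750), and Vegfc remained called without it.

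**Figure D3:**
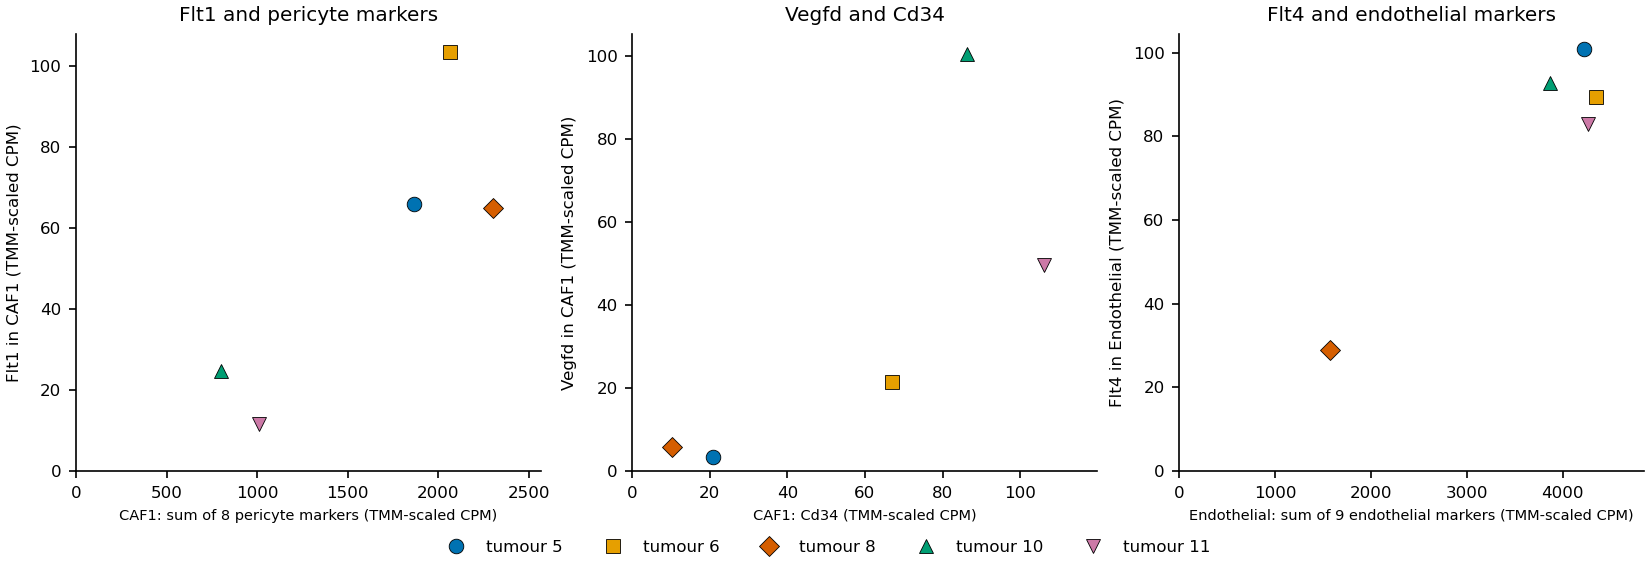
Members beside marker levels, 1 point per tumour, all in TMM-scaled CPM on linear axes. From left to right, tumours 10 and 11 are low for both Flt1 and the sum of 8 pericyte markers in CAF1 and high for both Vegfd and Cd34 in CAF1, and tumour 8 lies apart at 28.9 for Flt4 and 1568 for the sum of 9 endothelial markers in endothelial libraries.

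Within the TAMs, the CD206- subset had more Vegfa and less neuropilin RNA than either CD206+ subset. Of 6 members that passed the filter (Vegfa, Vegfb, Pgf, Kdr, Nrp1 and Nrp2), 2 rose and 1 fell in CD206hi against CD206neg, where 10% of 11052 genes were called, 6.14% higher and 3.9% lower. The same counts, 2 and 1, held for CD206pos against CD206neg, where 14.7% of genes were called, 8.85% higher and 5.85% lower. The medians over the 6 members were -0.26 and 0.32, beside 0.019 and 0.018 over all genes. Both comparisons share the CD206neg libraries.

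Vegfa was lower in CD206hi than in CD206neg in 5 of 5 tumours, with a log2 fold change of -1.71 ± 0.34 (edgeR adjusted p = 0.00304), and lower in CD206pos in 5 of 5 tumours, by -1.24 ± 0.34 (edgeR adjusted p = 0.01998). The second call was lost without the CD206neg library of tumour 6 (-1.06, edgeR adjusted p = 0.05505) and without the CD206pos library of tumour 11 (-1.15, edgeR adjusted p = 0.05119). Nrp1 was higher by 1.38 ± 0.26 in CD206hi (edgeR adjusted p = 0.001802) and by 1.33 ± 0.26 in CD206pos (edgeR adjusted p = 0.001949), in 5 of 5 tumours each.

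Nrp2 was higher by 1.199 ± 0.26 in CD206hi (edgeR adjusted p = 0.005529) and by 1.17 ± 0.26 in CD206pos (edgeR adjusted p = 0.005798), again in 5 of 5 tumours. Without the 2 CD206neg libraries of tumours 6 and 8, Nrp2 missed the threshold in both comparisons (1.06 and 1.03, edgeR adjusted p = 0.0724 and 0.05775), whereas Nrp1 and Vegfa stayed called in both. Pgf was lower in CD206hi than in CD206neg in 5 of 5 tumours, by -1.02 ± 0.50, and did not pass the test (edgeR adjusted p = 0.2541). Vegfb and Kdr did not pass it in either comparison, nor did Pgf in CD206pos against CD206neg (0.71 ± 0.48, edgeR adjusted p = 0.3496).

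Between CD206hi and CD206pos, 0 of the 6 members were called by edgeR, where 0.19% of genes were called, 0.00905% higher and 0.181% lower. At an unadjusted p under 0.05, 1 of the 6 was found, where 7.25% of all genes were, and DESeq2 called 0. That member was Pgf, lower in CD206hi in 4 of 5 tumours by a log2 fold change of -1.73 ± 0.50 (edgeR adjusted p = 0.3173). It was called without the CD206pos library of tumour 5 (-2.02, edgeR adjusted p = 0.04223), which at 2.15 held the least Pgf of its group against 6.28 to 25 in the other 4. The differences for Nrp1 (0.05 ± 0.25) and Nrp2 (0.03 ± 0.26) were smaller than their errors.

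**Figure D4:**
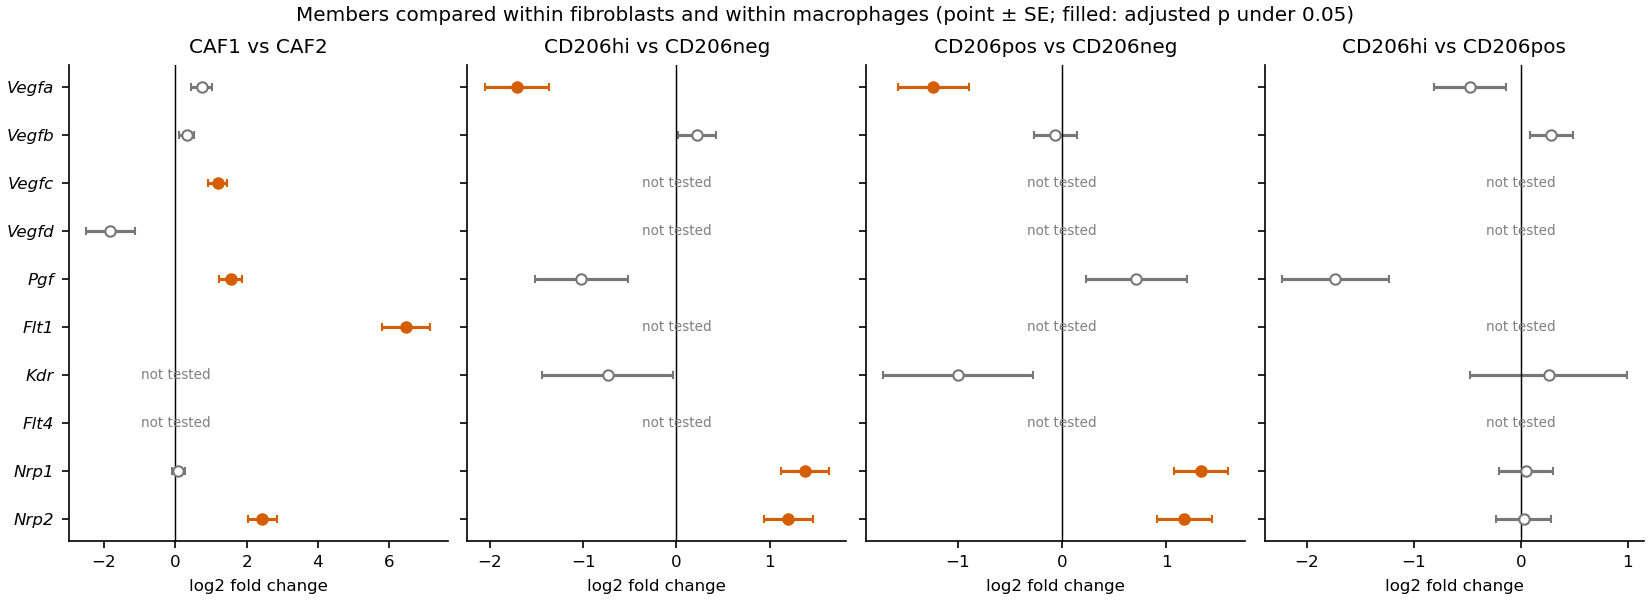
Log2 fold changes of the members within fibroblasts and within macrophages, 1 panel per comparison, with bars of ± 1 SE. Filled orange points passed the test at adjusted p under 0.05 (edgeR), open grey points did not, and members below the filter on low counts are written as not tested. Flt1 lies at 6.47 in CAF1 against CAF2, and Vegfa lies left of 0 where Nrp1 and Nrp2 lie right of 0 in both comparisons with CD206neg.

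Against the fibroblasts, endothelial cells were richer in receptors and neuropilins and poorer in Vegfa, Vegfb and Vegfd. Against CAF1, 5 of the 10 members were called higher and 3 lower, where 34.7% of 13610 genes were called, 15.9% higher and 18.8% lower. Against CAF2, 7 were called higher and 3 lower, where 46.0% of genes were called, 23.7% higher and 22.3% lower. The 2 comparisons and that with the TAMs share the endothelial libraries. Epithelial markers summed to 1180, 1839, 774, 143 and 1352 in these libraries, against 1.85 to 429 in CAF2, and the pericyte gene Rgs5 averaged 186 ± 242 against 2.45 ± 3.89. The part of these cells in the differences was not tested. The median log2 fold change was 1.31 over the members against CAF1 and 2.14 against CAF2, beside -0.0045 and 0.050 over all genes.

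Flt1 was higher in endothelial cells than in CAF1 by a log2 fold change of 3.83 ± 0.63 (edgeR adjusted p = 1.666e-05, 5 of 5 tumours). Nrp1 was higher by 1.65 ± 0.26 than in CAF1 and 1.72 ± 0.26 than in CAF2 (edgeR adjusted p = 9.323e-06 and 3.473e-06), and Nrp2 by 2.27 ± 0.33 and 4.70 ± 0.38 (edgeR adjusted p = 2.789e-06 and 3.246e-11), all in 5 of 5 tumours. Without the endothelial library of tumour 8 these log2 fold changes were 4.03 for Flt1, 1.80 and 1.86 for Nrp1, and 2.38 and 4.80 for Nrp2. Kdr was higher than in CAF2 by 6.63 ± 0.68 (edgeR adjusted p = 3.761e-09), and by 6.77 without that library. Kdr and Flt4 did not pass the filter in the fit of the fibroblasts, and Flt4 entered this fit through the endothelial libraries. Vegfd, with 19 counts in the endothelial libraries, entered it through the fibroblasts. Flt1, with 34 counts over the CAF2 libraries, entered it through the endothelial and CAF1 libraries. The calls on Flt4 and Vegfd, and that on Flt1 against CAF2, therefore follow in part from the filter.

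Among the ligands, Vegfa was lower in endothelial cells than in CAF1 by a log2 fold change of -1.90 ± 0.39 (edgeR adjusted p = 0.0002991, 5 of 5 tumours; -2.17 without the endothelial library of tumour 8) and than in CAF2 by -1.17 ± 0.38 (edgeR adjusted p = 0.01377, 4 of 5 tumours). Pgf and Vegfc were higher than in CAF2, by 2.50 ± 0.41 and 1.78 ± 0.31 (edgeR adjusted p = 1.066e-05 and 2.061e-05), in 5 of 5 tumours. Against CAF1, Pgf was higher in 5 of 5 tumours by 0.97 ± 0.39 and missed the threshold (edgeR adjusted p = 0.0551). It was called with tumour as a block (1.05, edgeR adjusted p = 0.0144), in a fit of the compared groups alone (edgeR adjusted p = 0.0278), and without the CAF1 library of tumour 5 (edgeR adjusted p = 0.03965) or 6 (edgeR adjusted p = 0.04573).

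Vegfc differed between endothelial cells and CAF1 by 0.60 ± 0.30 (edgeR adjusted p = 0.1243, higher in 3 of 5 tumours), and was called without the CAF1 library of tumour 11 (0.88, edgeR adjusted p = 0.02732). Vegfb was lower in endothelial cells than in CAF1 by -0.91 ± 0.21 (edgeR adjusted p = 0.0008833) and than in CAF2 by -0.61 ± 0.21 (edgeR adjusted p = 0.01681), in 5 of 5 tumours. The second of these calls was lost without the endothelial library of tumour 5 (edgeR adjusted p = 0.05249) or 11 (edgeR adjusted p = 0.05111), without the CAF2 library of tumour 5 (edgeR adjusted p = 0.07192) and in a fit of the compared groups alone (edgeR adjusted p = 0.05698).

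Against the TAMs, taken as the equal-weight mean of the 3 subsets on the log2 scale, 8 members were called higher in endothelial cells and 2 lower, where 61.3% of genes were called, 36.5% higher and 24.7% lower. One of the 8 is Vegfd, which entered the fit through the fibroblast libraries and had 19 counts in the endothelial libraries and 1 in the TAMs. The median was 3.75 over the members and 0.17 over all genes, a shift against which the smaller values are to be read. With Vegfd set to its ratio of pooled counts (33.4, 95% interval 5.32 to 1390, 19 counts against 1), the members' median was 4.25. The call on Vegfd was lost without the endothelial library of tumour 6 (edgeR adjusted p = 0.06057) or 11 (edgeR adjusted p = 0.06667). Vegfa was lower by -2.19 ± 0.36 (edgeR adjusted p = 4.174e-06) and Vegfb by -1.32 ± 0.18 (edgeR adjusted p = 2.457e-07), in 5 of 5 tumours. Pgf was higher by 3.44 ± 0.30 (edgeR adjusted p = 2.512e-11) and Flt1 by 10.24 ± 0.54 (edgeR adjusted p = 4.407e-16). Flt1, Flt4 and Vegfc, also among the 8, did not pass the filter in the fit of the TAMs alone. They entered this fit through the libraries in which they are high, so their calls against the TAMs follow in part from the filter.

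The neuropilins differed least. Nrp2 was higher in endothelial cells than in TAMs by a log2 fold change of 0.66 ± 0.25 (edgeR adjusted p = 0.02314, 5 of 5 tumours), a call lost without the endothelial library of tumour 10 (edgeR adjusted p = 0.05047) or 11 (edgeR adjusted p = 0.06681). Nrp1 was higher by 0.47 ± 0.20 (edgeR adjusted p = 0.04678, 4 of 5 tumours) and missed the threshold in 15 of 20 fits that left out 1 library, with adjusted p up to 0.2275 without the endothelial library of tumour 5. It also missed it without the CD206neg libraries of tumours 6 and 8 (0.47, edgeR adjusted p = 0.06343). Without the endothelial library of tumour 8 it was 0.63 (edgeR adjusted p = 0.006965). Mean Nrp1 was 413 in endothelial cells, 415 in CD206hi, 402 in CD206pos and 160 in CD206neg, so the Nrp1 fold rests on CD206neg. Mean Nrp2 was 106 in endothelial cells, 88.5 in CD206hi, 87.2 in CD206pos and 38.6 in CD206neg. Endothelial cells had the highest Nrp2 of all populations in 3 of 5 tumours.

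Fibroblasts against TAMs, with both sides averaged over their subsets, gave 4 members higher and 4 lower, where 68.1% of genes were called, 37.3% higher and 30.8% lower. Pgf was higher in fibroblasts by 1.70 ± 0.26 (edgeR adjusted p = 1.183e-06) and Flt1 by 3.19 ± 0.56 (edgeR adjusted p = 1.09e-05). The Flt1 average rests on CAF1, since Flt1 in CAF2 (0.647) lay below CD206pos (1.496). Pgf was higher in CAF1 (35.1) than in CAF2 (12.2), but its average does not rest on CAF1 alone. For Pgf, endothelial cells exceeded CAF2 by 2.50 and the TAMs by 3.44 (log2), so CAF2 also lay above the TAM mean. Pgf in CAF2 (8.31 to 17.45) lay above CD206hi (2.35 to 4.56) and overlapped CD206neg (mean 6.94) and CD206pos (mean 11.3). Vegfc and Vegfd were the other members that were higher. Flt1, Vegfc and Vegfd did not pass the filter in the fit of the TAMs alone. They entered this fit through libraries where they are high, so their calls follow in part from the filter. Nrp2 was lower by -2.83 ± 0.23 (edgeR adjusted p = 6.611e-12), Nrp1 by -1.21 ± 0.17 (edgeR adjusted p = 2.961e-07), Vegfa by -0.66 ± 0.25 (edgeR adjusted p = 0.02011) and Vegfb by -0.56 ± 0.13 (edgeR adjusted p = 0.0004691), each in 5 of 5 tumours. Mean Vegfa was 71.1 in CAF1 and 43.0 in CAF2, against 52.3 in CD206hi, 73.3 in CD206pos and 174 in CD206neg. The Vegfa difference therefore rests mainly on CD206neg, and CAF1 lay above CD206hi. For Nrp1, CD206neg (mean 160) overlapped CAF1 (mean 132), so the Nrp1 difference rests mainly on the CD206+ subsets. The median over the members was 0.82, beside 0.10 over all genes.

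Across tumours, Vegfa was the one member called by edgeR. Of the 10 members, 1 was called in a joint edgeR test of tumour differences with population in the model, where 22.0% of 13610 genes were called. The fitted range of Vegfa over the 5 tumours was 1.24 on the log2 scale, from tumour 11, the lowest, to tumour 5, the highest (edgeR adjusted p = 0.01921). Tumour 11 had the lowest Vegfa in endothelial cells, CAF1, CAF2, CD206hi and CD206pos, and tumour 8 in CD206neg. The highest tumour differed between populations, and tumour 8 was the highest in endothelial cells. Endothelial Vegfa was highest in tumours 8 and 5 (31.4 and 29.4, against 7.45 to 17.7 in the others). Their endothelial libraries also had the highest sums of pericyte markers (1182 and 672), whose part was not tested. The same test called 7 of 7 dissociation response genes and 6 of 7 epithelial markers, and the dissociation sum was highest in tumour 11 in 5 of 6 populations, at 10790 to 44510. The part of either in the Vegfa difference was not tested.

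Nrp1 had a fitted range of 0.53 (edgeR adjusted p = 0.05501), highest in tumour 11, and DESeq2 called it (DESeq2 adjusted p = 0.02879). In 7 of 30 fits that left out 1 library a second member was called, with Nrp1 in 5 of them, Flt4 without the endothelial library of tumour 5 (edgeR adjusted p = 0.02815) and Pgf without that of tumour 6 (edgeR adjusted p = 0.04519). The CD206hi library of tumour 11, with the most Nrp1 (599), had the highest sum of dissociation response genes in its group (37780 against 7617 to 15430), whose part was not tested. The other 8 members ranged from 0.43 (Vegfb) to 2.15 (Flt4) with adjusted p of 0.1039 or more (edgeR).

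**Figure D5:**
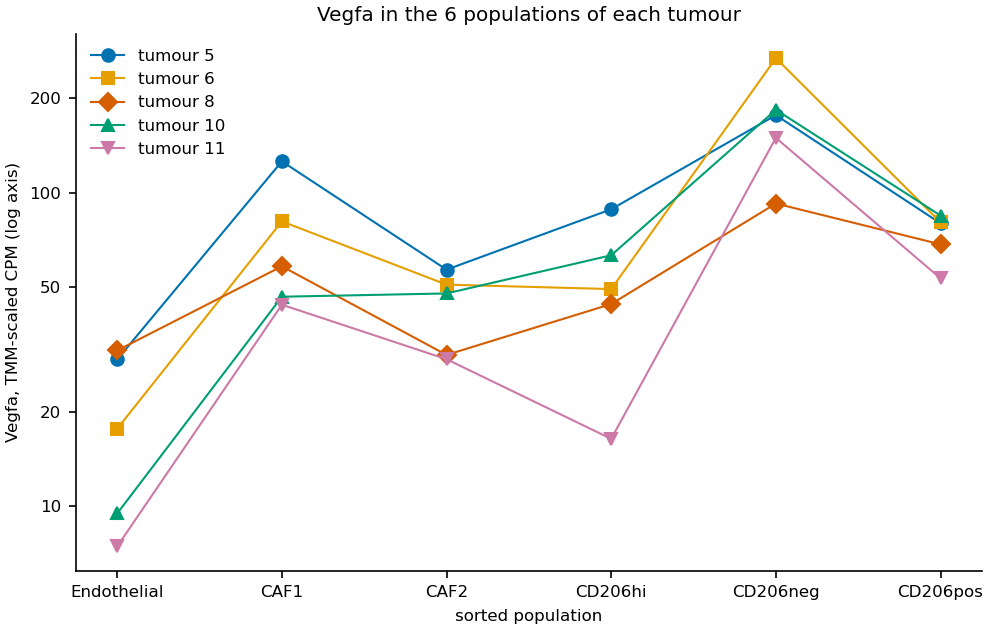
Vegfa in the 6 populations of each tumour, in TMM-scaled CPM on a log axis, 1 line per tumour. All 5 lines peak at CD206neg, and the line of tumour 11 is the lowest in 5 of the 6 populations.

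Genes with the pattern most like each member over the 30 libraries were ranked by Pearson's r of log2(TMM-scaled CPM + 1) among 13610 genes, as a description that rests mainly on differences between populations. For Flt4 these were Robo4 (r = 0.997), Myct1 (0.996) and AU021092 (0.995), and for Kdr Sox17 (0.968), Rbfox3 (0.966) and Myct1 (0.966). Flt1, which CAF1 shared, was closest to Nrarp (0.985), Esam (0.983) and Dcbld1 (0.980). Nrarp averaged 119 in endothelial cells and 17.1 in CAF1, and at most 0.368 elsewhere.

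Vegfd was closest to Bmper (r = 0.995), Lgi2 (0.992) and Tmeff2 (0.989), all highest in CAF2, and Vegfc to Bace2 (0.989), Col18a1 (0.986) and Pear1 (0.985). The weakest likeness was that of Vegfa, to Tbc1d10a (0.855), Got1 (0.852) and Dtx4 (0.837), each highest in CD206neg. Nrp1 was closest to Gpr146 (0.919), Nrp2 to Gdpd3 (0.966) and Vegfb to Cmtm7 (0.899).

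Of 6 listed factors that process VEGF-C and VEGF-D, 4 were called higher in fibroblasts than in TAMs and 1 lower, with a median log2 fold change of 6.13, where 37.3% of all genes were higher and 30.8% lower. In endothelial cells against CAF2, 4 were lower and 1 higher, with a median of -2.64, where 22.3% of all genes were lower and 23.7% higher. In the fit of the TAMs alone, 2 of the 6 passed the filter. The others entered through libraries in which they are high, so their calls against the TAMs follow in part from the filter. Ccbe1 (0.266) and Adamts14 (0.408), both called lower in endothelial cells than in CAF2, were near the floor in endothelial cells. The proprotein convertase Pcsk5 averaged 179 ± 75.8 in CAF1 and 145 ± 54.2 in CAF2, against 2.23 ± 1.18 in endothelial cells. Ccbe1, a cofactor of VEGF-C cleavage, averaged 7.03 ± 4.97 in CAF1 and 2.49 ± 2.16 in CAF2. Furin, another convertase of these ligands, went the other way, at 339 ± 84.0 in CD206neg and 39.3 ± 9.02 in CAF2.

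Of 11 listed genes known to be induced by VEGF in endothelium, 8 were called higher and 2 lower in endothelial cells than in CAF1. Their median log2 fold change was 3.98, where 34.7% of all genes were called, 15.9% higher and 18.8% lower. Against CAF2, 8 were higher and 1 lower, with a median of 6.68, where 46.0% of all genes were called, 23.7% higher and 22.3% lower. Against the TAMs, 7 were higher and 4 lower, where 61.3% were called, 36.5% higher and 24.7% lower. These comparisons set endothelial cells against other cell types, so they cannot tell induction by VEGF from cell type. Esm1, a tip cell gene, averaged 214 ± 106 in endothelial cells and 0.519 ± 0.537 in CAF1. The Notch ligand Dll4 averaged 277 ± 113 and 0.345 ± 0.373, and Plvap, of the diaphragms of fenestrae, 4732 ± 2149 and 44.3 ± 16.5. Angpt2, a ligand of the TIE2 receptor, was among the 4 of 8 tested that were higher in CAF1 than in CAF2 (53.0 ± 19.5 against 2.39 ± 1.87, edgeR adjusted p = 5.364e-05), and Rcan1 was the 1 that was lower. Between CAF1 and CAF2, 10.9% of all genes were higher in CAF1 and 8.59% lower.

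Receptor partners and signalling genes split in both directions. Of 12 partners, 7 were higher and 2 lower in endothelial cells than in CAF1, with a median of 1.05 (log2), led by the VE-cadherin gene Cdh5 and the phosphatase gene Ptprb (207 ± 53.2 against 8.34 ± 4.06). Of 21 signalling genes tested, 7 were higher and 4 lower, where 15.9% of all genes were higher and 18.8% lower, with Nos3, the endothelial nitric oxide synthase, at 244 ± 112 against 0.267 ± 0.208. In the fit of the fibroblasts, 11 of the 12 partners and 20 of the 21 signalling genes passed the filter. A call on a gene that did not pass there follows in part from the filter. In CD206pos against CD206neg, 4 of 18 signalling genes rose and 2 fell, where 14.7% of all genes were called. Those that rose included the focal adhesion kinase gene Ptk2 (6.80 ± 4.21 against 0.598 ± 0.655).

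The other ligands of the neuropilins, the class 3 semaphorins, parted the populations too. Between CAF1 and CAF2, 3 of 11 semaphorin and plexin genes tested were higher in CAF1 and 3 lower, with a median of -0.45 (log2), where 10.9% of all genes were higher and 8.59% lower. Sema3c averaged 573 ± 91.0 in CAF2 and 17.0 ± 6.51 in CAF1, and Sema3d 64.4 ± 9.30 and 22.0 ± 8.17. Sema3f, a ligand of NRP2, averaged 311 ± 141 in endothelial cells, 3.98 ± 1.83 in CAF1 and at most 1.06 in the other groups, and the plexin gene Plxnd1 169 ± 74.0 in endothelial cells and 11.8 ± 1.91 in CAF1.

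Genes of the hypoxia-inducible factor pathway, of which Vegfa is a known target, fell together with Vegfa in CD206pos against CD206neg in 6 of 16 cases, and none rose, where 5.85% of all genes fell. They were Ldha, Bnip3, Slc2a1, Pgk1, Egln1 and Vhl, the last 3 outside the naming rule and chosen after their values were seen. Ldha averaged 946 ± 64.7 in CD206pos and 2842 ± 886 in CD206neg (log2 fold change -1.58 ± 0.31, edgeR adjusted p = 0.001856), and the glucose transporter gene Slc2a1 69.6 ± 18.9 and 195 ± 72.3. The median of the list was -0.90, beside 0.018 over all genes. Without the CD206neg libraries of tumours 6 and 8, 6 of 16 again fell, where 8.11% of all genes were called, and Ldha stood at -1.75 (edgeR adjusted p = 0.006949). In CD206hi against CD206neg 2 of 16 fell, Ldha and Vhl, and none rose, where 3.9% of all genes fell and 10% were called in either direction. The median of the list there was -0.40, beside 0.019 over all genes. Ldha missed the threshold in that comparison without those libraries (-1.22, edgeR adjusted p = 0.05969). The count stayed at 2 of 16, where 4.75% of all genes were called in either direction. Vhl stayed called (-1.07, edgeR adjusted p = 0.03239) and Egln1 gained a call (-1.04, edgeR adjusted p = 0.009176).

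Between CAF1 and CAF2, 7 of 15 hypoxia pathway genes tested were higher in CAF1 and 1 lower, where 10.9% of all genes were higher and 8.59% lower. Egln3 averaged 33.4 ± 31.3 in CAF1 and 2.30 ± 2.62 in CAF2, and the factor Epas1 37.7 ± 10.8 and 3.99 ± 1.10. Adm, which encodes adrenomedullin, was the one that was lower (201 ± 151 against 723 ± 346). Their median was 0.66. Across tumours, 8 of the 16 were called in the joint test that called Vegfa, in which 22.0% of all genes were called.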

How the data were processed

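RNA was measured in 30 libraries from SMARTseq v4 cDNA and the Ovation Ultralow V2 kit, read on an Illumina HiSeq, per the labels' protocols. The deposited values are raw counts of reads per gene, and the authors used Trimmomatic 0.36, HISAT2 2.0.4, SAMtools 1.3.1, DESeq2 1.26 and build mm10, per the submitters' processing notes. Which program counted the reads, with which gene models and whether by strand, is not given in the sources used here, so reads of overlapping genes cannot be told apart. The lowest gene total over all libraries was 72 counts, so genes below that level are not analysed here.

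Counts were fitted with edgeR 4.0.16 (R 4.3.3), using filterByExpr, TMM factors and the quasi-likelihood test. Fibroblasts, TAMs and all 30 libraries were fitted separately, with 12149, 11052 and 13610 genes. Alternatives were DESeq2 1.42.0, RLE factors, no filter, other libraries in the fit, tumour as a block, and leaving out libraries. The effect on pathway lists of leaving out libraries that stood apart was added after seeing the data. Levels were TMM-scaled CPM from the 30-library fit, per kilobase of GENCODE vM21 exons where genes were compared.

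The tumour number pairs libraries, since each tumour comes from 1 animal, and deviations of same-tumour libraries correlated at 0.0798 to 0.413 in fibroblasts and 0.131 to 0.663 in TAMs. The main fits of the populations left this pairing out, and tumour as a block was run as an alternative. The named genes were the members, the 3 genes most like each, up to 3 called genes per direction with the largest change in each pathway list, and marker genes; the genes most like Pgf are not reported here. The members and lists were chosen with earlier results of these data known. Of 145 listed genes, 141 were in the matrix.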

Additional observations from a re-analysis of the deposited data

Results flagged for a closer look

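In 47 combinations of a member and a population, the highest and the lowest of the 5 libraries were compared with their nearest neighbour, and 5 stood apart by Dixon's test (critical value 0.71). Chance alone gives about 1 such combination in 20. Vegfc was 51.71 in the CAF1 library of tumour 11, against 21.26 to 27.68 in the other 4. Flt1 was 4.886 in the CD206pos library of tumour 8, against 0.161 to 1.522. Nrp1 was 599.1 in the CD206hi library of tumour 11, against 344.5 to 418. The endothelial library of tumour 8 stood apart for Flt4, at 28.88 against 82.88 to 100.9, and for Nrp2, at 67.3 against 109.4 to 125.3. All values are TMM-scaled CPM.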

How the results depend on the processing

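Of 1598 recomputed member values, 1537 kept their direction and their side of the threshold, 18 gained a call, 28 lost one and 15 changed sign, none of the last past the threshold in either form. Over the libraries left out in turn, CD206hi against CD206pos ranged from -0.01317 to 0.72 for Kdr, -0.09809 to 0.2111 for Nrp1 and -0.1123 to 0.1644 for Nrp2, CD206pos against CD206neg from -0.1711 to 0.003194 for Vegfb, and fibroblasts against TAMs from -0.3854 to 0.264 for Kdr. The number of members called ranged from 0 to 1 between CD206hi and CD206pos and from 1 to 2 across tumours, where DESeq2 gave 2. The cause was not tested. RLE factors and no filter changed no member's call.

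With tumour as a replicate block, Vegfa and Vegfd in CAF1 against CAF2 and Pgf in endothelial cells against CAF1 were called, and Kdr in fibroblasts against TAMs turned to -0.03426. The block changed no other member's call. It moved the genes called from 21 to 97 between CD206hi and CD206pos, where DESeq2 gave 82, the 30-library fit 36 and leaving out 1 library 5 to 48. It moved them from 1110 to 1791 in CD206hi and from 1625 to 2800 in CD206pos against CD206neg, and these became 545 and 930 without the library labelled CD206neg in tumours 6 and 8. With 6292411 to 11957076 counts a library, differences among levels under 0.251 to 0.477 CPM were not detectable.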
